A study of Mus musculus with 9 samples.

Results

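CpG methylation was examined at 10 genes of the circadian clock: Clock, Npas2, Arntl, Per1, Per2, Per3, Cry1, Cry2, Nr1d1 and Dbp. They were taken by name, with earlier results of these data known, from 34324 protein-coding and long noncoding RNA genes on the autosomes and X. For each gene, calls were added in every library over 1000 bp on each side of the start, over the gene body and in 1000-bp tiles, and libraries labelled Control were compared with libraries labelled Susceptible.

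The mammalian clock is a transcriptional feedback loop that runs in most cells of the body, including neurons of the striatum. CLOCK or its relative NPAS2 pairs with BMAL1, the product of Arntl, and binds E-boxes in the promoters of Per and Cry genes, whose proteins return to the nucleus and hold that pair in check. A linked loop runs through Nr1d1, which encodes REV-ERBα, a repressor that binds ROR elements of Arntl, and output factors such as DBP carry the rhythm to further genes through D-boxes. The E-box contains a CpG, so its methylation can be read directly in bisulfite data.

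The DNA came from frozen punches of the nucleus accumbens, the ventral striatal hub of the reward circuit, and was made into 9 whole-genome bisulfite libraries with a kit for small inputs. The animals were male C57BL/6J mice aged 8 weeks. Per the labels, Control libraries carry the numbers 2, 3, 4, 5 and 8 (n = 5) and Susceptible libraries 2, 3, 6 and 7 (n = 4). Values are given in that order throughout. The labels describe 10 daily social defeats by an aggressive CD1 male, with 1 text for every library. Handling of the Control mice, the scoring of susceptibility and the time of day of tissue collection are therefore not given in the sources used here. Bisulfite leaves methylated and hydroxymethylated cytosines alike, and both count as methylated here.

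Every listed cytosine had at least 10 calls. Listed calls per library ran from 313475624 to 430312082 in Control and from 432409939 to 570984634 in Susceptible libraries, without overlap (two-sided exact permutation p = 0.00794, the smallest that 126 splits can give). In Control 5 and Control 8 the strands of a CpG disagreed far more than counting error allows, by 18.4 and 19.7 times the binomial variance at CpGs of intermediate level against 2.38 to 6.11 times in the other libraries. For the 10 clock genes, the differences at first starts, bodies, named tiles and motif CpGs are therefore also given without Control 5 and Control 8. Autosomal CpGs as a whole read 76.4% ± 0.510 (SD, n = 5) for Control against 75.8% ± 0.964 (SD, n = 4) for Susceptible, and the gap of -0.597 percentage points was within the spread between libraries (two-sided exact permutation p = 0.278). It was -0.171 points without Susceptible 7 and -0.929 without Susceptible 6. In these punches of mixed cells, a change in the share of a cell type and a change in the level within cells cannot be told apart. Markers of the labelled tissue were low at their starts: the windows of 10 striatal projection neuron genes read 5.32 to 8.07% in Control and 6.14 to 7.29% in Susceptible libraries, while those of 5 microglia genes read 81.3 to 86.3%.

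The clock's own binding motifs were located in the RefSeq promoter windows (GRCm38.p6, 250 bases before to 50 after each start), which held 13 starts of 9 of the 10 genes. Per2 had no such window, so its promoter was not searched for motifs. The motifs searched on both strands were the E-box CACGTG, the E'-box CACGTT, which reads AACGTG on the other strand, the cAMP response element TGACGTCA, the D-box TTATGTAA, read as TTACATAA from the other side, and the ROR element AGTAGGTNA, likewise TNACCTACT. Of all 32619 promoters of that length, 7.20% hold the E-box, 4.71% hold the E'-box, 1.80% hold the cAMP response element, 0.944% hold the D-box and 0.595% hold the ROR element. An E-box or E'-box was found in Cry1, Cry2, Per1 and Nr1d1, D-boxes in Per3 and ROR elements in Arntl, and the cAMP response element in none of the 13. A match describes letters in a window and is not evidence of binding.

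The stretches that hold these motifs are shown because their CpGs could be read one by one. Capitals mark the motif, and each sequence is written 5′ to 3′ on the gene's strand. Cry1 has an E'-box at base -79 and an E-box at base -60 relative to its start (chr10:85185055-85185174, minus strand), Cry2 an E'-box at -166 (chr2:92434170-92434289, minus strand), Per1 an E-box at -166 (chr11:69098729-69098848, plus strand) and Nr1d1 an E'-box at -28 (chr11:98775378-98775497, minus strand).
Cry1: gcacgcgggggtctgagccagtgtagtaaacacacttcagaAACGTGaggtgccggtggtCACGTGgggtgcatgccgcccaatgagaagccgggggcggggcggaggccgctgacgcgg
Cry2: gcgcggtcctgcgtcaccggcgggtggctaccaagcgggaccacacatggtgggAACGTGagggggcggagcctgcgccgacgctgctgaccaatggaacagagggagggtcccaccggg
Per1: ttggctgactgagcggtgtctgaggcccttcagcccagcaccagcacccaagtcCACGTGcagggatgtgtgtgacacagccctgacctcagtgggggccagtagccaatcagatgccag
Nr1d1: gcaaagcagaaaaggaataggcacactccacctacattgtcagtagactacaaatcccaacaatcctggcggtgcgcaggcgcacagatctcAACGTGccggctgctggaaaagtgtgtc

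The CpG inside these motifs was almost free of methylation. Over the 5 E-box and E'-box CpGs, 17 of 1813 calls were methylated (0.938%). The Cry1 E'-box had 0 methylated of 286 calls, which allows a level of up to 1.05%, and the Cry1 E-box 5 of 306. The Cry2 E'-box had 8 of 465 methylated calls, the Nr1d1 E'-box 3 of 499 and the Per1 E-box 1 of 257, the last from 8 libraries because Control 4 did not list it. Such limits reflect counting alone, because copies of 1 molecule may have been counted more than once. Among CpGs listed in all 9 libraries with any variation, 5627449 were tested and 0 were called (0%) by the limma-moderated quasi-binomial model at a Benjamini-Hochberg adjusted p under 0.05. At an unadjusted p under 0.05 there were 455006 CpGs (8.09%), and 260293 under limma on logit levels, and none of the 3 motif CpGs that could be tested was among them under either. Their differences were +0.702 points at Cry2, -3.49 at Cry1 and -1.20 at Nr1d1 (adjusted p = 0.935, 0.690 and 0.668), and each rests on few methylated calls. Leaving out Control 8 moved Cry1 to -0.521 points, and leaving out Control 2 moved Nr1d1 to 0. At Cry2 leaving out Control 4 gave +2.48 points and leaving out Susceptible 3 gave -0.852. Without Control 5 and Control 8 the differences were -0.483 points at Cry2, -0.694 at Cry1 and -2.0 at Nr1d1.

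Per3 and Arntl hold motifs without a CpG, so no level belongs to the motif itself. They are shown as the only matches to the D-box and the ROR element in the 13 windows. Per3, a period gene with a supporting role, carries a pair of D-boxes at -205 and -158 (chr4:151044786-151044905, minus strand). Arntl carries ROR elements at +38 of its first start (chr7:113207495-113207514) and at +28 of its second (chr7:113207533-113207552), both on the plus strand.
Per3: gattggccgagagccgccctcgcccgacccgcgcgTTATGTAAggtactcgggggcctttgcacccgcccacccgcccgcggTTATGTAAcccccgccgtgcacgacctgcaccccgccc
Arntl start 1: ggtcggaaAGTAGGTTAgtg
Arntl start 2: gcagaaAGTAGGTCAgggac

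All 10 clock genes had weakly methylated starts. Means over the 9 libraries ran from 1.012% at Cry1 to 7.75% at Nr1d1, against a median of 36.8% over the 36400 gene starts tested. Where a gene has several starts among the RefSeq promoter windows, the first of these along the gene is meant. Per2 was taken at its CpG-richer end, which held 118 CpGs against 22 at the other. The first such start of Arntl, at 113207465, lies well inside the RefSeq gene bounds, which begin at 113178471. Distances at Arntl are counted from that start, and no window at the outer end was computed. The first such start of Per1, at 69098949, likewise lies inside its bounds, which begin at 69095108. In rising order the starts were Cry1, Clock, Dbp, Cry2, Arntl, Per3, Npas2, Per2, Per1 and Nr1d1. The ranges of neighbours in that order overlapped everywhere but between Per1, whose highest library read 3.92%, and Nr1d1, whose lowest read 4.23%.

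None of the 10 starts differed between the groups past the threshold. Of 36400 starts tested, 0 were called (0%) by the limma-moderated quasi-binomial model and Benjamini-Hochberg adjustment, and 0 by limma on logit levels. At an unadjusted p under 0.05 the first gave 1732 starts (4.76%) and the second 1391. Of the 10 clock genes 1, Clock, was among them under each. With 1 library left out at a time the number of clock genes was 0 in 7 of 9 fits, 1 without Control 2 and 2 without Control 3, where 3.35 to 5.68% of all starts did so. It was 0 without both Control 5 and Control 8. Susceptible means were above Control means at 8 of the 10 starts and below at 2, but at 8 of the 10, all but Clock and Dbp, the sign turned in at least 1 alternative computation. The median difference was +0.170 points, against -0.0843 over all starts.

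Clock (chr5:76209868-76305603) encodes the best known DNA-binding partner of BMAL1. Its start read 1.32, 1.18, 0.455, 0.875 and 0.338% in the Control libraries, and 1.34, 1.25, 1.5 and 1.56% in the Susceptible ones. Control 4 and Control 8 were the lowest libraries, Control 2 lay inside the Susceptible range, and the groups overlapped. The difference was +0.579 points (unadjusted p = 0.0423, adjusted p = 0.978 by the limma-moderated quasi-binomial model), and +0.427 without Control 5 and Control 8. At the second RefSeq start of Clock, which shares most of these CpGs, Control libraries read 1.16, 1.14, 0.334, 0.854 and 0.518% and Susceptible libraries 1.36, 1.35, 1.51 and 1.49%. There the groups did not overlap, as at 1.82% of all starts, with a difference of +0.625 points (unadjusted p = 0.0216, adjusted p = 0.978). The third start read 1.74% ± 0.389 (SD, n = 5) and 2.09% ± 0.314 (SD, n = 4), with overlap.

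The 250 bases before the first Clock start are shown because this was the only first start among the 10 genes with an unadjusted p under 0.05. They lie at chr5:76304793-76305042 on the minus strand, and capitals mark the 33 CpGs.
Clock: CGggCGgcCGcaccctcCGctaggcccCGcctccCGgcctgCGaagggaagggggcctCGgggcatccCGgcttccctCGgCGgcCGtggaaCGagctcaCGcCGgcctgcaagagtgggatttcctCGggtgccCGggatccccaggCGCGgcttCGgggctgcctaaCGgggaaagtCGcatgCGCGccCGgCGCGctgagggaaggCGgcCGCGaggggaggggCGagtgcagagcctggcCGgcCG
In the 300-bp promoter around it, which holds 42 CpGs, libraries read from 0.257 to 1.79%, at the bottom of the scale.

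Npas2 (chr1:39193702-39363240), the forebrain counterpart of Clock, read 1.84, 1.26, 1.54, 2.02 and 3.0% in Control and 1.99, 1.66, 2.07 and 2.78% in Susceptible libraries at its start. Arntl (chr7:113178471-113314126) read 1.73, 1.07, 1.59, 1.18 and 1.68% against 1.17, 1.64, 1.80 and 1.29%, and its other RefSeq start covers the same CpGs. Both genes had fully intermixed groups, with differences of +0.192 and +0.0296 points (adjusted p = 0.994 and 0.999).

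Among the repressors, Per1 (chr11:69095108-69109965), a period gene that responds quickly to light and glucocorticoids, read 1.69, 3.72, 1.09, 1.62 and 3.92% in Control and 1.60, 2.54, 3.88 and 3.42% in Susceptible libraries. Its second start, further into the gene, stood higher at 14.4, 21.0, 14.1, 15.2 and 8.5% against 13.4, 11.5, 16.5 and 16.6%, where the window reaches into methylated sequence. Neither start separated the groups, and Control 3 and Control 8 marked the ends of the range at the second. Per2 (chr1:91415977-91459351), a period gene needed for a stable rhythm in mice, read 2.25, 1.90, 2.01, 2.54 and 2.90% against 2.09, 2.43, 1.80 and 1.74%. Per3 (chr4:150997018-151044707) read 1.99, 2.30, 1.23, 1.36 and 1.40% against 1.77, 1.45, 1.76 and 2.02%. The groups overlapped at both, with differences of -0.304 and +0.0918 points (adjusted p = 0.983 and 0.992).

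The cryptochromes, the strongest repressors of the CLOCK and BMAL1 pair, had some of the lowest starts. Cry1 (chr10:85131700-85185054) read 1.05, 1.61, 0.967, 0.481 and 0.627% in Control and 1.36, 1.18, 0.712 and 1.13% in Susceptible libraries. Cry2 (chr2:92403646-92434085) read 1.88, 2.42, 1.0, 0.289 and 1.62% against 1.47, 1.55, 1.21 and 1.42%. In both genes the Susceptible libraries lay inside the Control range. The differences were +0.148 and -0.0276 points (adjusted p = 0.986 and 0.997).

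Nr1d1 (chr11:98767932-98775377) had the highest start of the 10 and the widest spread. It read 4.23, 11.8, 7.17, 6.67 and 4.52% in Control and 13.1, 7.70, 6.86 and 7.68% in Susceptible libraries. In each group 1 library stood above the others, Control 3 and Susceptible 2, and the groups overlapped. The difference was +1.97 points (adjusted p = 0.978). It was +0.539 without Susceptible 2, +3.20 without Control 3, and -0.0905 and -0.127 with windows of 500 and 2000 bp on each side. Dbp (chr7:45705100-45710203), a short output gene with strong rhythm, read 0.918, 0.659, 0.729, 2.67 and 0% in Control and 1.23, 1.70, 0.632 and 2.93% in Susceptible libraries. The value of 0 in Control 8 rests on 745 calls, which allows up to 0.403%. High and low libraries occurred in both groups at Dbp, with a difference of +0.628 points (adjusted p = 0.983). It was +0.191 without Susceptible 7 and +1.05 without Control 5, and +2.54 with CpGs that every library lists and +3.31 when those had equal weight.

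Without Control 5 and Control 8 the start differences were +0.577 points at Npas2, +0.0173 at Arntl, +0.694 at Per1, -0.0356 at Per2 and -0.0915 at Per3. They were -0.114 at Cry1, -0.353 at Cry2, +1.11 at Nr1d1 and +0.855 at Dbp. Leaving out 1 library at a time gave +0.0311 to +0.313 points at Cry1, +0.113 to +0.873 at Per1 and -0.443 to -0.158 at Per2. The sign at Cry1 and Per3 without both libraries was therefore the opposite of that with all 9 libraries.

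**Figure D1:**
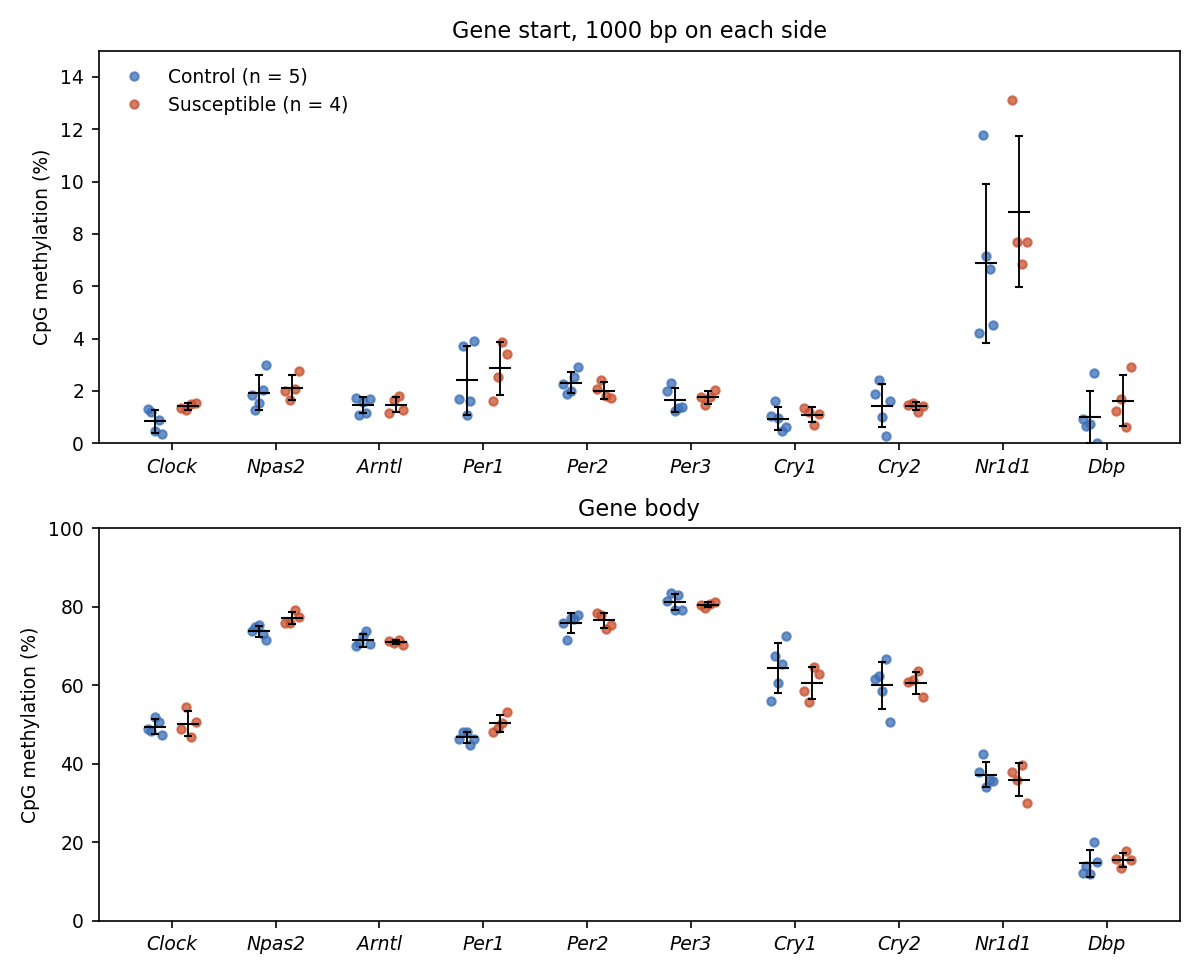
CpG methylation (%) of the 10 clock genes in windows of 1000 bp on each side of the start (upper panel, axis to 15%) and over the gene body (lower panel, axis to 100%). Points are libraries, 5 Control and 4 Susceptible, and bars are the group mean ± SD. Starts lie between 0 and 13.1%, and bodies range from about 15.02% at Dbp to 80.9% at Per3.

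The stretch of low methylation around the start differed in length from gene to gene. It was taken in each library as the run of CpGs whose level, pooled over 5 neighbouring CpGs, stayed under 50%. Its median over the 9 libraries was 2330 bp at Per3, 2533 bp at Per2, 2605 bp at Clock, 2769 bp at Cry1, 3910 bp at Nr1d1, 4476 bp at Arntl, 4823 bp at Dbp, 5044 bp at Cry2, 5162 bp at Npas2 and 6134 bp at Per1. At Per1 the stretch covered both starts and reached 4464 bp upstream of the first, where a tile centred at -3448 bp read 1.03% ± 0.734 (SD, n = 5) for Control against 1.08% ± 0.227 (SD, n = 4) for Susceptible. The RefSeq bounds of Per1 begin inside that tile. Per1 was steady, from 5990 to 6488 bp, while Npas2 ran from 3300 to 5519 bp and Dbp from 4416 to 7015 bp. Group ranges overlapped at each of the 10 genes, for instance 4178 to 5519 bp in Control and 3300 to 5443 bp in Susceptible libraries at Npas2. No test was run on these lengths.

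**Figure D2:**
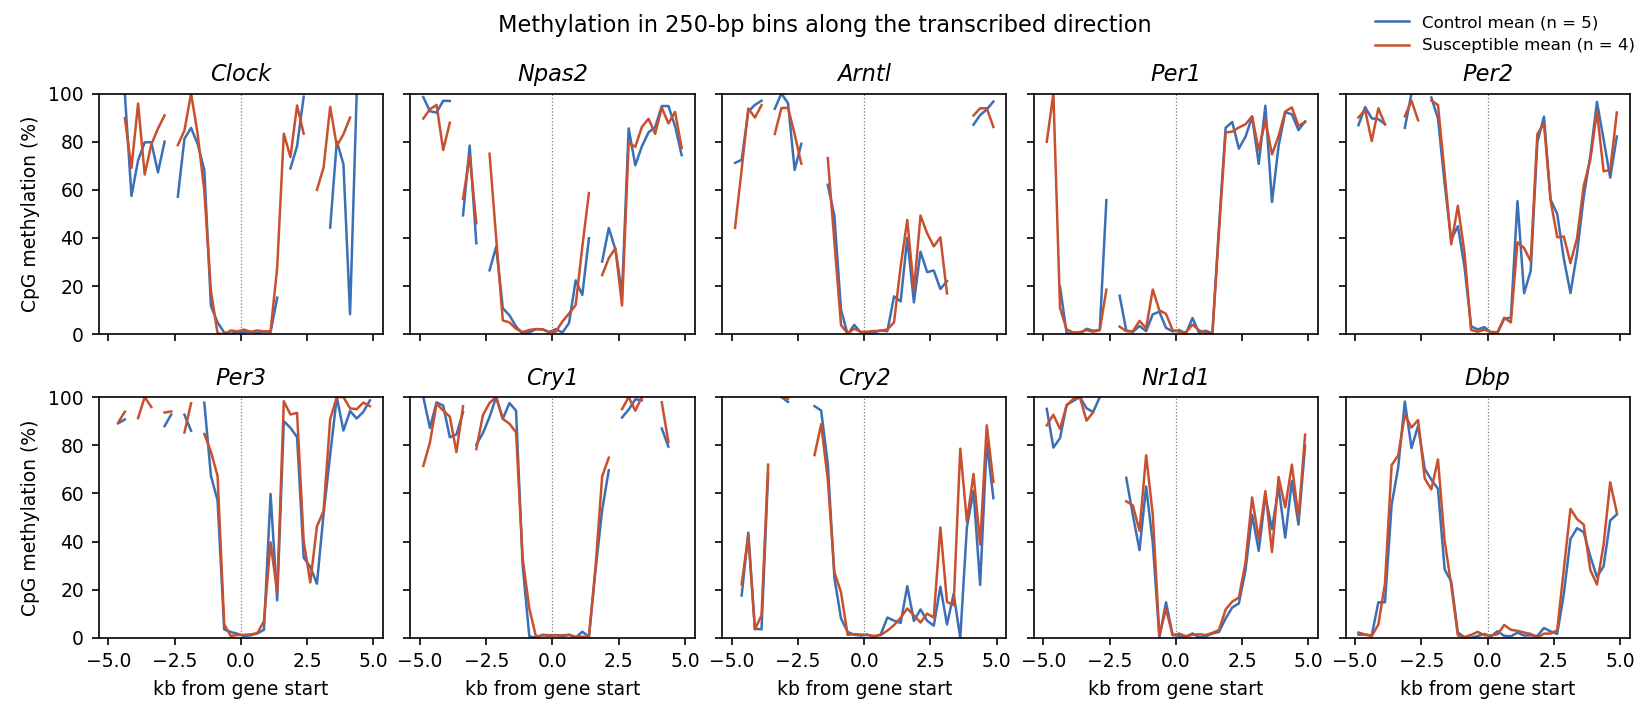
CpG methylation (%) in bins of 250 bp against distance from the gene start (kb, positive into the gene) for the 10 clock genes. Lines are means over the Control and over the Susceptible libraries that list the bin. A gap in a line is a bin where no library of that group lists a CpG. Both lines are low at each start, and single bins further out lie far apart, such as Cry2 at 2750 bp with 21.2 and 45.9% (16 CpGs) and at 3500 bp with 0 and 78.6% (1 CpG).

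Gene bodies ranged much more widely than starts. Means over the 9 libraries were 15.02% at Dbp, 36.6% at Nr1d1, 48.3% at Per1, 49.7% at Clock, 60.2% at Cry2, 62.7% at Cry1, 71.2% at Arntl, 75.2% at Npas2, 76.2% at Per2 and 80.9% at Per3, against a median of 77.6% over the 32372 bodies tested. Neighbours whose library ranges did not overlap were Dbp and Nr1d1, Nr1d1 and Per1, and Per2 and Per3. The 3 shortest genes had the 3 lowest bodies. Dbp is 5104 bp long and its low stretch reached 3098 bp past the start. Nr1d1 is 7446 bp long with 3115 bp. Per1 is 14858 bp long, and its low stretch reached 1641 bp past the start used and 4464 bp upstream of it. The RefSeq bounds of Per1 begin within that upstream part, so its body holds more of the stretch than the 1641 bp. The test covered 32372 bodies, of which 0 were called (0%) by the limma-moderated quasi-binomial model and Benjamini-Hochberg adjustment or by limma on logit levels. An unadjusted p under 0.05 was reached by 1531 (4.73%) under the first and 1353 under the second. The clock genes among them were Npas2 and Per1 under the first and Npas2 under the second. Groups did not overlap at 1.61% of all bodies and at 1 of the 10 clock genes, Npas2.

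The Npas2 body was higher in every Susceptible than in every Control library, by a small margin that missed the threshold. It read 73.8, 74.7, 75.4, 73.0 and 71.6% in the Control libraries, and 75.9, 75.9, 79.1 and 77.5% in the Susceptible ones. Susceptible 6 was the highest and Control 8 the lowest library, and the gap between the groups lay between Control 4 and Susceptible 2. The means were 73.7% ± 1.47 (SD, n = 5) against 77.1% ± 1.56 (SD, n = 4), which puts Susceptible +3.40 points above. Its unadjusted p was 0.00275 and its adjusted p 0.993 by the limma-moderated quasi-binomial model, and limma on logit levels gave an unadjusted p of 0.0312. From 38713 to 72056 calls per library stand behind these values. Without Control 5 and Control 8 the difference was +2.48 points with no overlap, and with CpGs restricted to those every library lists it was +3.45 points with overlap. The bodies of 10 striatal projection neuron genes, averaged, read 42.6 to 46.6% in Control and 43.8 to 52.2% in Susceptible libraries, and those of 5 astrocyte genes 76.0 to 78.1% and 70.6 to 76.4%. Bodies of 6 cortical projection neuron genes read 38.8 to 45.2% and 36.9 to 43.8%, and of 5 pan-neuron genes 54.6 to 57.2% and 54.6 to 58.4%. Those of 6 oligodendrocyte genes read 71.4 to 76.4% and 71.5 to 75.8%, and of 5 microglia genes 80.9 to 85.1% and 79.6 to 82.0%. The starts of the astrocyte genes read 54.8 to 59.5% and 41.4 to 55.7%. The part of these cell types in the Npas2 value was not tested. The 100000 bp on each side of Npas2 read 78.6% ± 1.57 (SD, n = 5) and 79.5% ± 2.17 (SD, n = 4), with overlap.

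The Npas2 difference was spread along the gene and not concentrated at the start. Cut into 4 equal parts in the direction of transcription, the body differed by +4.61, +2.08, +4.65 and +1.47 points. These parts were not tested. Of the 143 Npas2 tiles tested, 100 were higher in Susceptible libraries, and the median difference was +2.32 points, against -0.181 over all 1041809 tiles. No tile was called. An unadjusted p under 0.05 was reached by 14 Npas2 tiles, all of them higher in Susceptible libraries (9.79% of 143, where 2.18% of all tiles did so in that direction). Under limma on logit levels 6 tiles did so, all of them higher (4.20%, against 1.12% of all tiles in that direction). Neighbouring tiles come from the same libraries and are not independent. Without Susceptible 6 the count was 5 tiles, of which 4 were higher (2.80%, against 1.05% of all tiles). Without Control 5 it was 23, all of them higher (16.1%, against 2.83%). Equal weights for CpGs that every library lists gave 5 of 116 tiles, all of them higher (4.31%, against 1.60%). The Npas2 share of 9.79% was not the largest among the clock genes. Shares were larger at Dbp (2 of 8 tiles, 25%), Cry2 (4 of 28, 14.3%) and Per1 (2 of 17, 11.8%). The share was slightly larger at Nr1d1, from 1 tile, and smaller at Clock, Arntl, Per2, Per3 and Cry1.

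The Npas2 tile with the smallest p, chr1:39313001-39314000, lies 119228 bp into the gene and held 8 to 11 CpGs. It read 37.3, 24.9, 51.2, 25.5 and 3.13% in Control and 50, 44.7, 61.6 and 62.5% in Susceptible libraries. Control 8 stood far below the rest, and Control 4 lay inside the Susceptible range. The difference was +26.3 points (unadjusted p = 0.00143, adjusted p = 0.997 by the limma-moderated quasi-binomial model), and +16.9 without Control 5 and Control 8. A tile nearer the start, chr1:39206001-39207000, read 71.8, 74.7, 68.7, 58.7 and 52.3% against 74.1, 76.1, 81.5 and 81.8%, with the 2 lowest values again in Control 5 and Control 8 (difference +13.1 points, adjusted p = 0.997, and +6.62 points without those libraries). Groups overlapped in both tiles. They did not overlap in 3 of the 143 Npas2 tiles, a share near the 1.56% of all tiles.

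**Figure D3:**
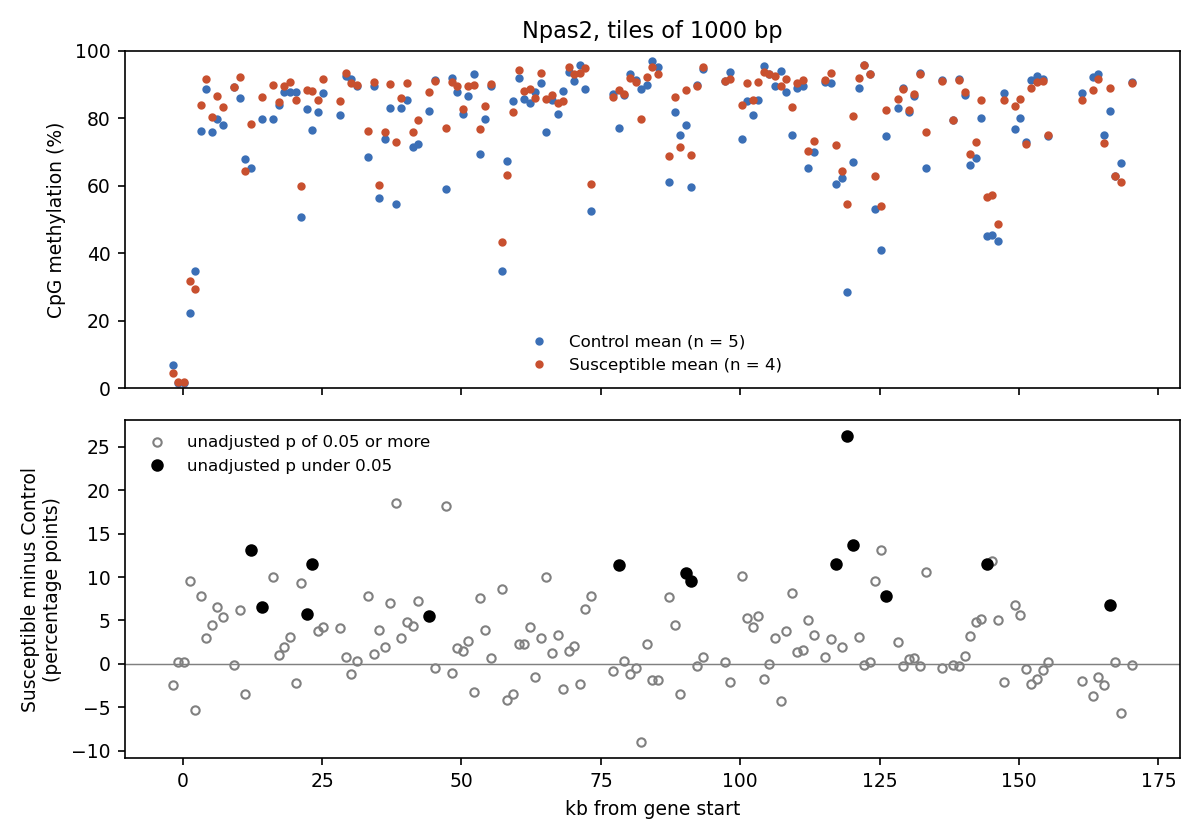
Npas2 in tiles of 1000 bp against distance from the gene start (kb). The upper panel gives mean CpG methylation (%) of the 5 Control and 4 Susceptible libraries, and the lower panel the difference of means in percentage points, with the 14 tiles at an unadjusted p under 0.05 filled. All 14 lie above 0, the farthest at +26.3 points, and none passed the adjusted threshold.

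Per1 was the other body with an unadjusted p under 0.05. It read 46.3, 48.0, 48.2, 44.9 and 46.2% in Control and 48.2, 49.1, 50.5 and 53.3% in Susceptible libraries. Susceptible 7 was the highest, and Control 4 and Susceptible 2 met at the boundary. The difference was +3.53 points (unadjusted p = 0.0201, adjusted p = 0.993 by the limma-moderated quasi-binomial model; unadjusted p = 0.0702 by limma on logit levels). It was +1.24 points when only CpGs that every library lists were used, each with equal weight. Over 4 equal parts of the gene, which were not tested, the differences were +0.529, +1.75, +4.04 and -0.465 points. Without Control 5 and Control 8 the body difference was +2.74 points.

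The other 8 bodies had overlapping groups and adjusted p values of 0.993 or more. Clock read 48.9, 48.3, 51.9, 50.7 and 47.3% in Control and 48.9, 54.3, 46.8 and 50.6% in Susceptible libraries. Arntl was the steadiest of the 10 bodies, at 69.9, 70.6, 72.5, 73.7 and 70.5% against 71.3, 70.8, 71.5 and 70.3%. Both had groups that lay on top of each other, with differences of +0.725 and -0.433 points.

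Per2 read 75.9, 71.6, 77.1, 76.9 and 78.0% in Control and 78.3, 77.9, 74.4 and 75.4% in Susceptible libraries at its body. Per3 read 81.6, 83.4, 79.2, 83.0 and 79.1% against 80.5, 79.7, 80.6 and 81.2%. Susceptible libraries lay within or close to the Control range in both genes, with differences of +0.590 and -0.783 points. Leaving out 1 library at a time gave -0.491 to +1.30 points at Per2 and -1.33 to -0.241 at Per3. The cryptochromes spread the most. Cry1 read 56.0, 67.4, 60.6, 65.3 and 72.5% against 58.6, 55.8, 64.7 and 62.9%, and Cry2 read 61.7, 62.3, 58.5, 66.6 and 50.6% against 60.7, 61.3, 63.6 and 56.9%. Control 8 was the highest library at Cry1 and the lowest at Cry2, and the differences were -3.87 and +0.704 points. At Cry1 the difference was -1.83 points without Control 8, -5.96 without Control 2 and -2.28 without Susceptible 3. At Cry2 it was -1.64 points without Control 8 and -0.296 without Susceptible 6. Without the first 2000 bp of Cry1 the difference was +0.143 points.

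Nr1d1 read 37.9, 42.3, 34.0, 35.8 and 35.7% in Control and 38.0, 35.9, 39.7 and 30.04% in Susceptible libraries, a difference of -1.23 points. Dbp read 12.02, 13.9, 11.99, 20.1 and 14.9% against 15.7, 13.3, 17.6 and 15.6%, a difference of +0.973 points. Single libraries set the extremes, Susceptible 7 at Nr1d1 and Control 5 at Dbp. Inside Dbp the level was higher towards the end of the gene: the first of 4 equal parts read 1.75% ± 1.25 (SD, n = 5) and 1.94% ± 0.744 (SD, n = 4), and the last 39.0% ± 10.54 (SD, n = 5) and 48.0% ± 4.29 (SD, n = 4). Without Susceptible 7 the Nr1d1 difference was +0.724 points, and leaving out 1 library at a time gave Dbp differences from +0.283 without Susceptible 6 to +2.36 without Control 5. The Dbp difference was +4.51 points without the first 2000 bp, +2.16 with CpGs that every library lists and +4.15 when those had equal weight.

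Without Control 5 and Control 8 these 8 bodies differed by +0.452 points at Clock, -0.00236 at Arntl, +1.62 at Per2 and -0.924 at Per3. They differed by -0.836 at Cry1, -0.192 at Cry2, -2.17 at Nr1d1 and +2.93 at Dbp, so that Cry2 had the opposite sign to that with all 9 libraries.

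Of 1041809 tiles, 462 of them at clock genes, 0 were called (0%) by the limma-moderated quasi-binomial model or by limma on logit levels. At an unadjusted p under 0.05 there were 35 clock gene tiles (7.58%), against 45605 of all tiles (4.38%), and limma on logit levels gave 10 (2.16%) against 36550 (3.51%). The share of clock gene tiles was above the background under the first computation and below it under the second, and without Susceptible 6 the 35 tiles became 18 (3.90%, against 2.84% of all tiles in the same fit). Unmoderated dispersion gave 22 tiles (4.76%, against 4.375% of all tiles). Equal weights for CpGs that every library lists gave 17 of 382 (4.45%, against 4.28%). Groups did not overlap in 5 of the 462 clock gene tiles and in 1.56% of all tiles. Susceptible means were higher in 264 and lower in 198 of the 462, with Npas2 giving 100 of the 264.

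The remaining tiles of smallest p lay at Per2, Cry2 and Arntl, and each had an adjusted p of 0.997. The Per2 tile, chr1:91414001-91415000, lies beyond the far end of the gene and read 21.1, 19.4, 21.2, 31.3 and 21.0% in Control and 18.2, 19.8, 11.2 and 6.28% in Susceptible libraries, a difference of -8.91 points, and -6.67 without Control 5 and Control 8. The Cry2 tile, chr2:92409001-92410000, read 91.3, 93.0, 91.1, 77.6 and 79.7% against 94.5, 92.7, 94.4 and 91.3%, a difference of +6.72 points with the lowest values in Control 5 and Control 8, and +1.44 without them. With CpGs that every library lists it was +10.6 points, and +12.2 when those had equal weight. The Arntl tile, chr7:113210001-113211000, lies 3035 bp past the start, at the edge of its low stretch, and read 22.5, 24.6, 24.2, 16.1 and 28.4% against 32.9, 27.0, 41.2 and 27.0%, a difference of +8.85 points, +8.26 without Control 5 and Control 8 and +5.79 without Susceptible 6. Groups overlapped in all 3.

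Low methylation also occurred inside the genes, away from the starts. Arntl had a tile 42035 bp past its start at 20.7% ± 1.82 (SD, n = 5) for Control against 23.3% ± 3.56 (SD, n = 4) for Susceptible, in a body of 71.2%. Npas2 had the tile at 119228 bp described above and another at 57228 bp with 34.8% ± 6.40 (SD, n = 5) and 43.4% ± 12.6 (SD, n = 4). Just past the end of Per1 a tile read 7.04% ± 3.64 (SD, n = 5) and 8.58% ± 3.88 (SD, n = 4). Other inner tiles, of intermediate level, differed in both directions. A Dbp tile at 4253 bp read 38.8% ± 12.5 (SD, n = 5) and 48.7% ± 4.25 (SD, n = 4). An Npas2 tile at 125228 bp read 40.9% ± 17.0 (SD, n = 5) and 54.0% ± 12.6 (SD, n = 4). Tiles at Cry2 and Arntl were lower in Susceptible libraries. A Cry2 tile 9568 bp past the start read 54.9% ± 8.16 (SD, n = 5) for Control and 43.4% ± 4.41 (SD, n = 4) for Susceptible. An Arntl tile at 44035 bp read 53.2% ± 18.5 (SD, n = 5) and 35.4% ± 7.51 (SD, n = 4). None of the tiles named here passed the threshold, with adjusted p values of 0.997 by the limma-moderated quasi-binomial model.

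The 17 further genes linked to the clock were more varied at their starts. They were Arntl2, Nr1d2, Rora, Rorb, Bhlhe40, Bhlhe41, Tef, Hlf, Nfil3, Csnk1d, Csnk1e, Fbxl21, Ciart, Btrc, Fbxw11, Timeless and Usp2. Their starts ran from 0.949% at Nfil3, a repressor that competes with DBP at D-boxes, to 85.7% at Arntl2, the relative of Arntl, and 12 of 17 lay under 10%, as did 10 of the 10 clock genes. Timeless, whose product acts at replication forks, read 51.1%. Some of these starts lie well inside the RefSeq gene bounds. Arntl2 was read at 146805530 with bounds from 146794729, Timeless at 128238066 with bounds from 128232063 and Usp2 at 44084920 with bounds from 44067021. Csnk1e, on the minus strand, was read at 79442143 with bounds reaching 79455579. Windows at the outer ends of these genes were not computed. Bodies ran from 8.72% at Bhlhe41 to 84.3% at Rora. None of the 17 was called at start or body. The only one with an unadjusted p under 0.05 was the start of Usp2, a ubiquitin protease, at 5.03, 5.34, 7.36, 5.07 and 7.10% in Control and 6.48, 6.16, 8.85 and 10.03% in Susceptible libraries. The groups overlapped there, with a difference of +1.90 points (unadjusted p = 0.0454, adjusted p = 0.978 by the limma-moderated quasi-binomial model; unadjusted p = 0.147 by limma on logit levels).

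**Figure D4:**
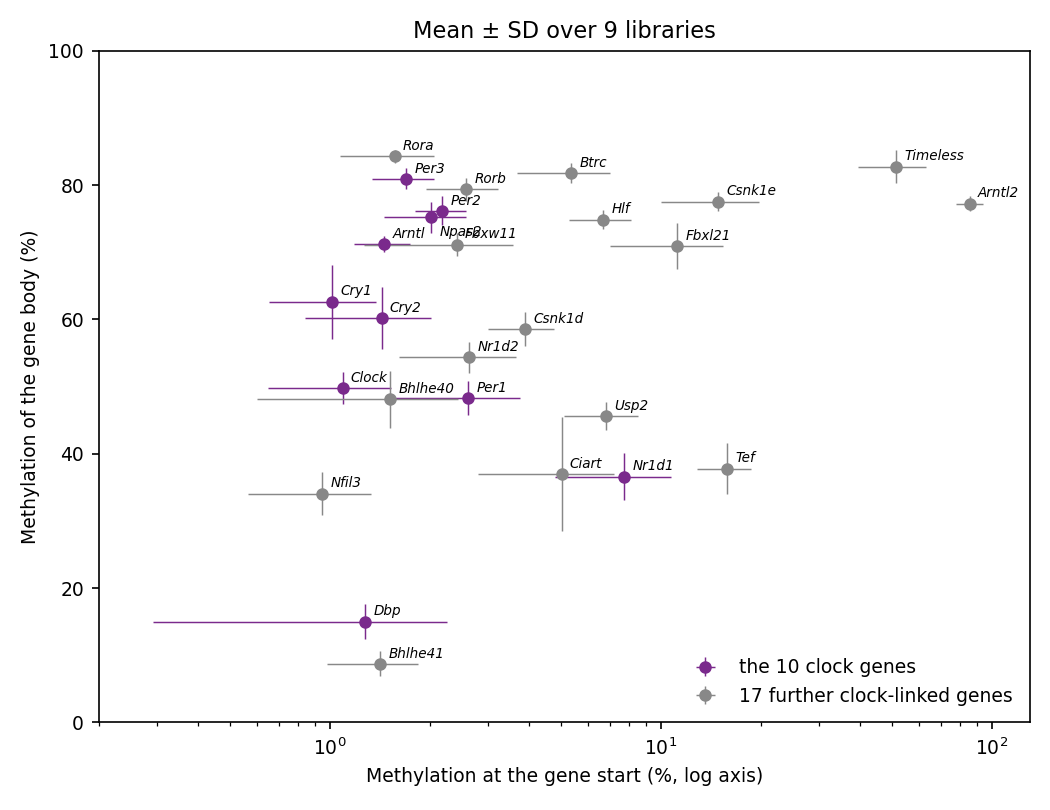
Mean methylation of the gene body (%) against that of the gene start (%, log axis) over the 9 libraries for the 10 clock genes and 17 further clock-linked genes, with SD bars in both directions. The 10 clock genes keep to the left, between 1.012 and 7.75% at the start, while Timeless and Arntl2 lie far to the right at 51.1 and 85.7%. The starts used for Timeless and Arntl2 lie inside the RefSeq gene bounds, and their outer ends are not shown.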

How the data were processed

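The data are whole-genome bisulfite libraries of 5 Control and 4 Susceptible nucleus accumbens punches. Per the submitters' processing notes, Picard, Bismark and Bowtie were used with build mm10; the sources used here do not give their order or settings. Per the file headers, coverage is the count of calls per cytosine, and the deposited whole numbers show no sign of normalization. Methylated calls are this count times the deposited percent of C, rounded. The lowest count is 10, so listed totals fall short of the full depth. All columns belong to a mapped sample.

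Both strands of a CpG were added, and a level is methylated calls over all calls of a window. Starts, bodies and promoter sequences came from RefSeq GRCm38.p6, with exons not used here. All 396389 listed positions within 32619 promoter windows fell on a CpG of the sequence, so the coordinates match. A gene without a promoter entry was taken at its CpG-richer end.

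Starts, bodies, tiles and single CpGs were each tested over the whole genome (minimum 3 CpGs and 20 calls per library; for single CpGs, those that every library lists and that vary) by a quasi-binomial logistic model, with the Pearson dispersion moderated by the formulas of limma 3.58.1's squeezeVar and kept at 1 or more, an F test and Benjamini-Hochberg adjustment at 0.05. It ran in Python 3.11.15 with numpy 2.4.6, pandas 2.3.3 and scipy 1.17.1, and was tested on simulated data. P-values measure the spread between these libraries; the labels do not say whether each came from a separate mouse. Numbers in the labels do not say that samples are paired, and the 2 numbers shared by the groups showed deviation correlations of 0.0272 and -0.0326, so no block was used. All 10 genes are named at start and body, with motif CpGs, the 5 tiles of smallest unadjusted p where none was called, and further clock genes at an unadjusted p under 0.05. Some genes of the list of further clock genes are not reported here. Alternatives were limma on logit levels (1 call added to each class), unmoderated dispersion, a replicate block, leaving out libraries, other call minimums, common CpGs, equal weights and other windows. The members, lists and tests were chosen with earlier results of these data known.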

Additional observations from a re-analysis of the deposited data

Results flagged for a closer look

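In 5 of 64 groups of libraries examined 1 library stood apart from the others of its group by Dixon's criterion, and chance alone does so in about 1 in 20 groups. At the Nr1d1 start Susceptible 2 read 13.1%, where the other Susceptible libraries read 6.86 to 7.70%. In the tile beyond the far end of Per2, Control 5 read 31.3% and the other Control libraries 19.4 to 21.2%.

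The other 3 were single CpGs inside E-boxes or E'-boxes, where few calls carry the value. At Cry2, Control 4 read 8.89% (4 of 45 calls, exact 95% interval 2.47 to 21.2%) and the other Control libraries 0%. At Cry1, Control 8 read 15.4% (4 of 26 calls, 4.36 to 34.9%) and the other Control libraries 0 to 2.08%. At Nr1d1, Control 2 read 6.0% (3 of 50 calls, 1.25 to 16.6%) and the other Control libraries 0%. The intervals cover counting error only.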

How the results depend on the processing

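No clock gene start, body, tile or motif CpG was called in any alternative that was run. Over all 1041809 tiles, leaving out 1 library gave 0 to 1 calls; the 1 call, without Control 4, had an adjusted p of 0.0378 by the limma-moderated quasi-binomial model. Signs held in all alternatives for the starts of Clock and Dbp, the bodies of Npas2 and Per1 and the 5 named tiles. Limma on logit levels, unmoderated dispersion and calls divided by strand disagreement use the same difference of levels, so no sign could turn under them. The named tiles were picked for their small p and were not read on a shifted tile grid. The motif CpG difference was 0 at Cry1 under the replicate block and 0 at Nr1d1 without Control 2. The Clock start, at an unadjusted p under 0.05, was no longer so with unmoderated dispersion, the replicate block, windows of 500 bp, equal weights or calls divided by strand disagreement. The other differences, in percentage points, turned as follows, and the cause was not tested. Windows of 500 bp gave starts of -0.0655 at Cry1, -0.239 at Per1, -0.0905 at Nr1d1 and +0.259 at Cry2, and windows of 2000 bp -0.127 at Nr1d1 and -0.380 at Per3. CpGs listed in all 9 libraries gave starts of -0.185 at Cry1, -0.184 at Per1 and +0.126 at Cry2, and bodies of -1.06 at Cry2 and +1.69 at Nr1d1. Weighted equally, they gave starts of -0.217 at Cry1, -0.00605 at Per1 and -0.244 at Arntl, and bodies of -0.312 at Per2, +0.000543 at Per3, +0.514 at Cry1 and +1.48 at Nr1d1. At least 20 calls gave +0.173 at the Cry2 start and -0.454 at the Dbp body. Without the first 2000 bp, bodies were +0.143 at Cry1 and +0.649 at Nr1d1. Without Control 5 and Control 8, starts were -0.114 at Cry1 and -0.0915 at Per3, the Cry2 body -0.192 and the Cry2 CpG -0.483. Leaving out 1 library gave ranges for starts of -0.0246 to +0.460 at Npas2, -0.316 to +0.217 at Cry2, -0.0162 to +0.253 at Per3 and -0.0796 to +0.131 at Arntl. For bodies it gave -0.491 to +1.3 at Per2, -1.64 to +2.37 at Cry2, -0.677 to +1.85 at Clock, -0.823 to +0.129 at Arntl and -2.50 to +0.724 at Nr1d1, and for the Cry2 CpG -0.852 to +2.48. Some differences kept their sign but moved by more than 1.5 times. Windows of 2000 bp gave starts of +0.777 at Npas2, +1.48 at Cry1, +1.08 at Per1, -0.734 at Cry2, +0.913 at Clock and +0.838 at Arntl. CpGs listed in all 9 libraries gave bodies of +2.30 at Clock and -1.43 at Cry1, and a start of +0.552 at Per3. Weighted equally, they gave -0.966 at the Per2 start, +1.51 at the Cry2 body, +1.24 at the Per1 body and +8.02 at the Npas2 tile nearer the start. Without the first 2000 bp, bodies were +2.17 at Cry2, +0.312 at Per2, -0.297 at Per3 and +0.232 at Clock.

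A replicate block could use only numbers 2 and 3, which the labels do not say pair the samples. It called nothing and put 3 clock gene bodies (2 without it; 4.65% of all bodies), 21 clock gene tiles (4.55%, against 4.60% of all) and 9 Npas2 tiles, 5 of them higher (3.50%, against 2.71% of all), at an unadjusted p under 0.05. Bodies were +1.64 at Npas2, +1.46 at Per1, +4.36 at Per2, +3.01 at Clock, -2.40 at Per3, -3.16 at Nr1d1 and +1.57 at Dbp, the Clock start +0.0460 and the Cry2 start -0.640. Named tiles were +16.2 and +1.83 at Npas2, -1.23 at Per2, +1.48 at Cry2 and +6.42 at Arntl, and the motif CpGs +4.96 at Cry2 and -3.0 at Nr1d1. It turned starts to +0.188 at Per2, -0.0606 at Cry1, -0.635 at Per1 and -0.538 at Per3 and bodies to -0.983 at Cry2 and +0.816 at Arntl.

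Depth limits the motif CpGs, with 12 to 87 calls in the libraries that list them. Time of day at tissue collection is not given in the sources used here.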
